A study of Arabidopsis thaliana with 18 samples.

Results

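Salicylate and immune marker genes were followed in root RNA of Arabidopsis thaliana grown with or without sodium chloride. The set holds 10 genes chosen by name for their roles in immunity, and 8 of them have a row among the 24532 genes of the deposited count table. These 8 are FRK1 (AT2G19190), CBP60G (AT5G26920), SARD1 (AT1G73805), ICS1 (AT1G74710), PAD3 (AT3G26830), PR1 (AT2G14610), PR2 (AT3G57260) and PR5 (AT1G75040). The other 2, CYP71A12 (AT2G30750) and CYP71A13 (AT2G30770), were not analysed here.

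The libraries fall into 6 groups, given by genotype and NaCl. WT was used at 0 mM NaCl with 3 libraries and at 150 mM with 2. Lines C4 and B2 had 3 libraries each at 0 mM and 3 each at 150 mM. Both lines express the isoprene synthase cDNA of Eucalyptus globulus, with its own transit peptide, from the promoter of rbcS-1A, an Arabidopsis gene for the small subunit of rubisco that is known mainly from green tissue. The protocols in the labels name an empty vector line as the control for growth work and 0, 50 or 100 mM NaCl on plates as its treatments, and the growth of the plants at 150 mM is not described there. The labels do not say whether libraries of a group are separate plants or cultures, and the p-values cover library-to-library spread that can be technical.

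In Arabidopsis, recognition of microbial molecules at the cell surface sets off kinase cascades and rapid induction of genes such as FRK1. The transcription factors CBP60g and SARD1 then activate ICS1, whose product makes the isochorismate from which most immune salicylic acid is built. Salicylic acid acts through NPR receptors on targets such as PR1, PR2 and PR5. Camalexin, an indolic antimicrobial compound made from tryptophan, is a separate arm of the same defence and depends on PAD3.

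Library totals ranged from 54233853 to 91527683 counts, with 21291 to 21602 genes detected. Levels are given as CPM, counts scaled to a common library size after TMM scaling. Of 8 root marker genes, 0 were at 0 in every library of any group, and their summed level was 459.6 to 677.5 CPM over the libraries. The summed level of 6 leaf and green tissue markers was 7.05 to 63.2 CPM at 0 mM and 25.2 to 72.7 CPM at 150 mM, and 1 of the 6, RBCS2B (AT5G38420), was at 0 in every library of 5 groups. Reads that map to several places were not counted, which would lower the level of any marker with close copies. The part of green tissue RNA in the results below was not tested. Both of the following libraries went against their genotype label. The library labelled B2 at 0 mM, library 3, held 96.8 CPM of ANNAT3 (AT2G38760) and 0.0499 CPM of MRD1 (AT1G53480), whereas the other libraries labelled B2 held 0.458 to 1.36 CPM of ANNAT3. The library labelled WT at 150 mM, library 2, held 33.4 CPM of MRD1, against 0.0965 to 2.06 CPM in the other WT libraries. MRD1 was 32.75 to 44.01 CPM in the C4 libraries and 36.3 to 43.1 CPM in the other B2 libraries. For the WT library the doubt rests on MRD1 alone. Its ANNAT3 was 76.0 CPM, beside 89.4 to 177 CPM in the other WT libraries and 59.3 to 179.6 CPM in C4. The values of the members without these libraries stand beside the results they enter.

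The promoter windows of 4 genes are shown first, because WRKY factors are among the regulators of immune genes, and these 4 genes cover the outcomes found under salt: a rise, a fall, and no call. Each window is the 250 bases before the annotated gene start in RefSeq's TAIR10.1 sequence, on the gene's own strand; the gene spans of the deposited TAIR10 table equal those of that reference for the 8 genes. FRK1 lies on chromosome 2 at 8326049 to 8329944 on the minus strand, and its window is chr2:8329945-8330194. SARD1 lies on chromosome 1 at 27744790 to 27749248 on the minus strand (chr1:27749249-27749498). CBP60G lies on chromosome 5 at 9475679 to 9478777 on the plus strand (chr5:9475429-9475678). PAD3 lies on chromosome 3 at 9887917 to 9889791 on the plus strand (chr3:9887667-9887916). Capitals mark TTGAC or its reverse complement GTCAA, the core of the W box that WRKY transcription factors bind.
FRK1: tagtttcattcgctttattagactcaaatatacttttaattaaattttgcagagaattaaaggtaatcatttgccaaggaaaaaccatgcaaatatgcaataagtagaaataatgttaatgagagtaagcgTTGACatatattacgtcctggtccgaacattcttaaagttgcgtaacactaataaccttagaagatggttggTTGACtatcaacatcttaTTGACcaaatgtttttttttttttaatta
SARD1: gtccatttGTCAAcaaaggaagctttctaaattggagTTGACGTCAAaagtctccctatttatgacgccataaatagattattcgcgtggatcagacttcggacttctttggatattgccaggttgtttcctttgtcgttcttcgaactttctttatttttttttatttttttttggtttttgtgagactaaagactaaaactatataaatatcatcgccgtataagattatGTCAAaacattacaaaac
CBP60G: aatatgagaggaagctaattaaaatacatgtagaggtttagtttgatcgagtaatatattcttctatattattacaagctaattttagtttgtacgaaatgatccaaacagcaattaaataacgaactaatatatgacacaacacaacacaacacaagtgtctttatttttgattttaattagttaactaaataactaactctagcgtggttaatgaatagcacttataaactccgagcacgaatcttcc
PAD3: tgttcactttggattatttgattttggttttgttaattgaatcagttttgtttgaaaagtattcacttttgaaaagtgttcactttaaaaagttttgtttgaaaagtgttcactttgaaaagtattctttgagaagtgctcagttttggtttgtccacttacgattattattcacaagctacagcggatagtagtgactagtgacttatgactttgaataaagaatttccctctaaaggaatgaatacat

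FRK1 held 3 copies of the core, at 119, 47 and 29 bases before the gene start. SARD1 held 4, at 242, 213, 208 and 18 bases, with the copies at 213 and 208 bases back to back on opposite strands. PR1 held 1 copy at 104 bases and PR5 held 1 at 165 bases. No TTGAC or GTCAA was in the windows of CBP60G, PAD3, ICS1 and PR2. Thus 4 of 8 windows had the core, beside 45.33% of the 24527 windows of the same length that could be read for the genes of the table. The core CGCGT of the CG box, bound by CAMTA factors, was in 1 of 8 windows (SARD1) and in 7.217% of all windows. The core ACGTG of the abscisic acid response element was in 2 of 8 (PR1 and PR2) and in 23.55% of all. A match is a description of the letters only, and either strand was searched for each motif.

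The members differed widely in level. Per kilobase of exon and over the 17 libraries, PAD3 had the highest mean level at 31.7 CPM per kb, followed by CBP60G at 17.9, FRK1 at 5.66, ICS1 at 4.13 and SARD1 at 0.352. PR2 had 0.0275 CPM per kb, PR5 had 0.0192, and PR1 had 0 counts in every library. The order of neighbours was not the same in every group: FRK1 stood below ICS1 in the 0 mM groups (2.43 to 3.53 against 3.45 to 3.84 CPM per kb) and above it at 150 mM (8.24 to 9.10 against 3.81 to 5.46). In each 0 mM group the library ranges of FRK1 and ICS1 per kilobase overlapped. CBP60G, second in the order over all libraries, stood slightly above PAD3 in WT at 150 mM (7.03 against 6.24 CPM per kb). In total, 6 of the 8 genes passed the filter on low counts and were tested: FRK1, CBP60G, SARD1, ICS1, PAD3 and PR2.

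**Figure D1:**
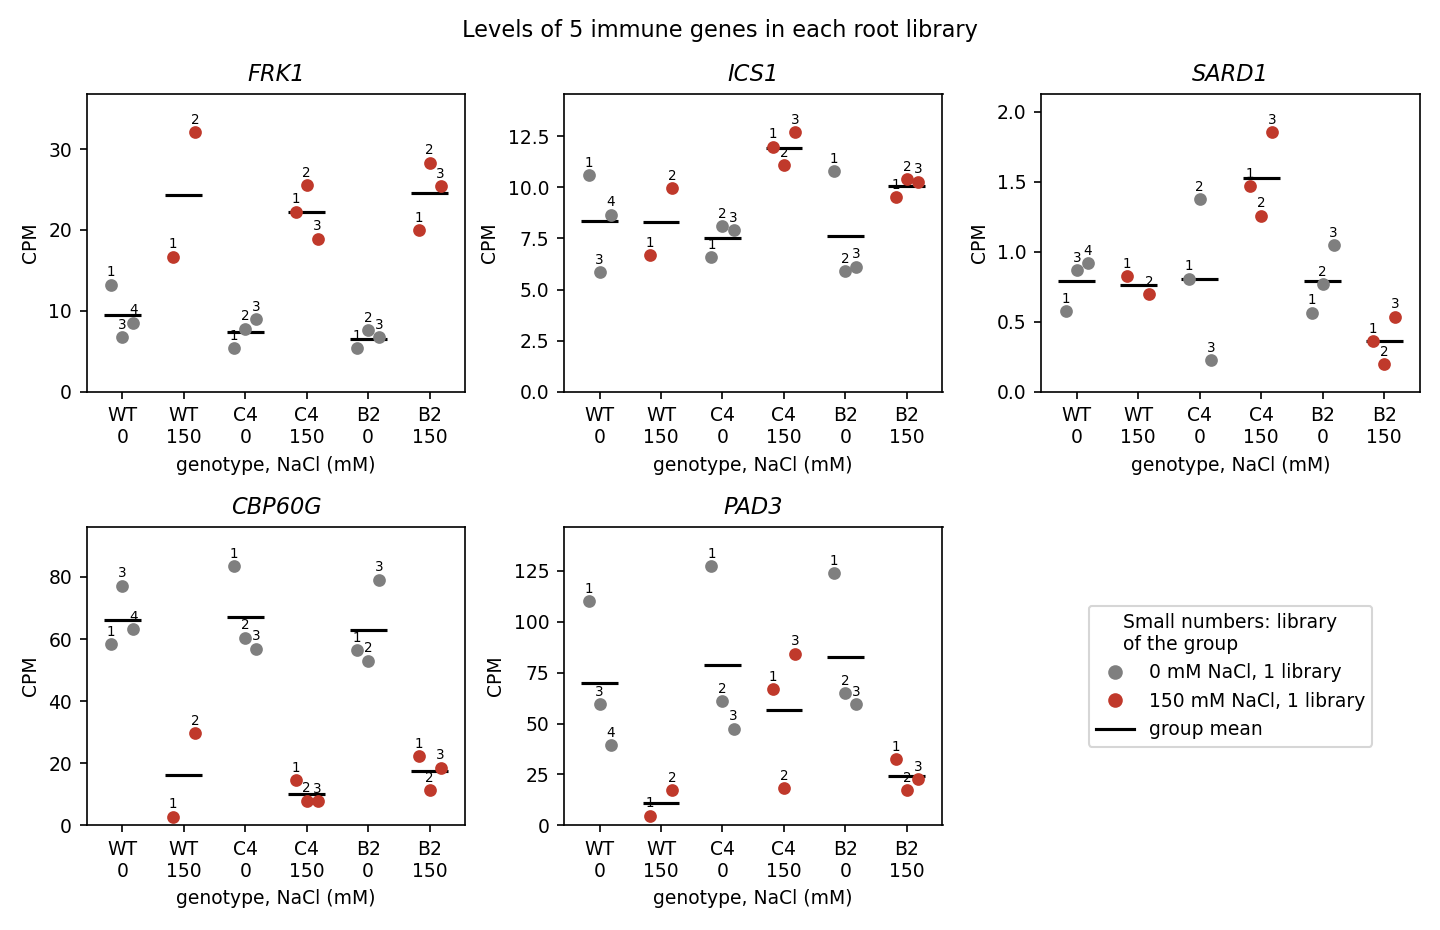
Level in CPM (vertical axis, linear, separate scale per gene) of 5 genes in each library of the 6 groups of genotype and NaCl; grey points are libraries at 0 mM, red points at 150 mM, small numbers name the library and bars are group means. FRK1 is higher at 150 mM in every genotype, CBP60G is lower in every genotype, and the PAD3 libraries of C4 at 150 mM spread from 18.2 to 84.2 CPM.

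FRK1 rose with salt in each genotype. It encodes a leucine-rich repeat receptor kinase that bacterial flagellin induces within a short time, and it serves as a marker of surface-receptor immunity. In WT it was 13.2, 6.79 and 8.55 CPM at 0 mM (libraries 1, 3 and 4) and 16.7 and 32.1 CPM at 150 mM (libraries 1 and 2). In C4 it was 5.39, 7.82 and 8.99 CPM without salt and 22.2, 25.5 and 18.9 CPM with salt. In B2 it was 5.37, 7.59 and 6.76 CPM without salt and 20.0, 28.3 and 25.4 CPM with salt. Every salt library was above every 0 mM library of its own genotype, and also above those of the other genotypes.

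The log2 fold change of FRK1 was 1.36 ± 0.30 (SE) in WT (adjusted p = 0.00772), 1.59 ± 0.28 in C4 (adjusted p = 0.00256) and 1.90 ± 0.28 in B2 (adjusted p = 0.00182), by edgeR's quasi-likelihood test with Benjamini-Hochberg adjustment over 21367 genes. The averaged response of the 3 genotypes was a 3.06-fold rise (1.62 ± 0.17, adjusted p = 5.04e-06). The rise in WT depended on the library labelled WT at 150 mM, library 2: without it the value was 0.82 (adjusted p = 0.105), and with the WT groups alone in the fit it was 1.36 with an adjusted p of 0.0846. The calls in C4, in B2 and in the average held with any 1 of the 17 libraries left out. Without both libraries of doubted label the average was 1.44 ± 0.17 (adjusted p = 3.66e-05) and the B2 value 1.91 ± 0.30 (adjusted p = 0.00919). The gene overlaps AT2G19180 on the other strand, which held 16.6 to 27.1 CPM over all libraries; the counting was strand-specific. In bulk roots, more RNA per cell and more cells that express a gene cannot be told apart.

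CBP60G moved the other way. It encodes a calmodulin-binding transcription factor that binds the ICS1 promoter. In WT it was 58.4, 77.2 and 63.1 CPM without salt, and 2.81 and 29.6 CPM with salt. In C4 it went from 83.5, 60.5 and 56.9 CPM to 14.5, 7.94 and 7.74 CPM. In B2 it went from 56.5, 53.0 and 79.1 CPM to 22.3, 11.3 and 18.6 CPM. The lowest 0 mM library of all, at 53.0 CPM, stood above the highest salt library, at 29.6 CPM, and that highest library was the one labelled WT at 150 mM, library 2.

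The log2 fold change of CBP60G was -2.74 ± 0.59 in C4 (adjusted p = 0.00957) and -1.85 ± 0.57 in B2 (adjusted p = 0.0416), by edgeR. In WT the log2 fold change was -2.03 ± 0.67, with an adjusted p of 0.0517, and it passed in DESeq2 (-2.04, adjusted p = 0.0149). With both near-identical WT columns at 0 mM kept, edgeR gave -1.99 (adjusted p = 0.0327). That fit counts the same sample more than once, so its smaller p is not evidence of a call. Averaged over the genotypes, the level fell 4.62-fold (-2.21 ± 0.36, adjusted p = 0.000272). The 2 WT salt libraries pulled apart: without library 2 the WT value was -4.55 ± 0.52 (adjusted p = 0.000192), and without library 1 it was -1.17 (adjusted p = 0.149). The averaged value was -3.05 without library 2 and -1.92 without library 1, and passed in both cases; without both libraries of doubted label it was -2.98 (adjusted p = 2.93e-06). The call in C4 was lost without C4 at 150 mM, library 2 (-2.59, adjusted p = 0.0521).

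The call of CBP60G in B2 was lost with more libraries than that of any other member. It was lost with any of 7 libraries left out, with values from -1.97 to -1.64. These were WT at 0 mM library 3 (adjusted p = 0.0537), C4 at 150 mM library 2 (0.0502), B2 at 0 mM libraries 1 (0.0688), 2 (0.0544) and 3 (0.121), and B2 at 150 mM libraries 2 (0.172) and 3 (0.112). Without both libraries of doubted label the B2 value was -1.67 ± 0.29 and passed (adjusted p = 0.0118).

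SARD1, the partner of CBP60g that acts on ICS1 without binding calmodulin, was scarce and did not pass in any salt comparison. In WT it was 0.576, 0.869 and 0.917 CPM without salt and 0.826 and 0.696 CPM with salt. In C4 it went from 0.807, 1.38 and 0.226 CPM to 1.47, 1.26 and 1.85 CPM. In B2 it went from 0.565, 0.770 and 1.05 CPM to 0.363, 0.198 and 0.536 CPM. At 150 mM the genotypes did not overlap, with C4 highest, WT between and B2 lowest, whereas at 0 mM they overlapped.

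The salt response of SARD1 had a log2 fold change of -0.05 ± 0.57 in WT (adjusted p = 0.968), 0.92 ± 0.51 in C4 (adjusted p = 0.270) and -1.12 ± 0.53 in B2 (adjusted p = 0.155). Without both libraries of doubted label it was 0.08 ± 0.74 in WT (adjusted p = 0.962) and -0.88 ± 0.60 in B2 (adjusted p = 0.379). The comparison of C4 against B2 at 150 mM was added after these values were seen: SARD1 was 4.16-fold higher in C4 (2.06 ± 0.54, unadjusted p = 0.00143, adjusted p = 0.403), and 0.00% of all genes passed there in edgeR. DESeq2 called it (2.06, adjusted p = 0.0350), beside 0.363% of all genes. The edgeR value was 2.06 (adjusted p = 0.340) without both libraries of doubted label. The difference of both lines' salt responses was 2.03 ± 0.74 (adjusted p = 0.997), or 1.79 ± 0.80 without those libraries, and 0.00% of all genes passed. The gene overlaps AT1G73790 on the other strand, which held 4.34 to 7.07 CPM over all libraries.

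ICS1, the isochorismate synthase, moved little. In WT it was 10.6, 5.83 and 8.66 CPM without salt and 6.68 and 9.95 CPM with salt, and the groups overlapped. In C4 it went from 6.58, 8.11 and 7.90 CPM to 12.0, 11.1 and 12.7 CPM, with no overlap. In B2 it went from 10.8, 5.90 and 6.11 CPM to 9.53, 10.4 and 10.3 CPM, where library 1 at 0 mM was above all 3 salt libraries. The log2 fold changes were -0.01 ± 0.27 in WT (adjusted p = 0.990), 0.66 ± 0.24 in C4 (adjusted p = 0.0837) and 0.40 ± 0.24 in B2 (adjusted p = 0.254).

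Averaged over the genotypes the value of ICS1 was 0.35 ± 0.14 (adjusted p = 0.0582). It moved both ways across the alternatives. It was 0.25 without WT at 150 mM library 2 (adjusted p = 0.215) and 0.20 without both libraries of doubted label (adjusted p = 0.328), where the WT value was -0.31 ± 0.32 (adjusted p = 0.575) and the B2 value 0.26 ± 0.25 (adjusted p = 0.544). DESeq2 gave 0.35 (adjusted p = 0.0486). In edgeR it passed without WT at 0 mM library 1 (0.42, adjusted p = 0.0286), without WT at 150 mM library 1 (0.44, adjusted p = 0.0344) and without B2 at 0 mM library 1 (0.46, adjusted p = 0.00837). The C4 value passed without B2 at 0 mM library 1 (0.66, adjusted p = 0.0443) and with the C4 groups alone in the fit (0.68, adjusted p = 0.0115). Its regulator CBP60G had the opposite sign in the same libraries of C4, where it fell while ICS1 had 1.58 times the level without salt.

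The 3 salicylate-responsive PR genes gave almost no reads in these roots. PR1, an antimicrobial secreted protein and the standard readout of salicylate signalling, had 0 counts in each of the 17 libraries. A count of 0 allows up to 0.00234 CPM over the pooled libraries and up to 0.0322 to 0.0531 CPM in a single one, for counting error only. PR5, a thaumatin-like protein, had 21 counts in all: 18 in C4 at 150 mM library 1, 3 in library 3 of the same group, and 0 in the other 15 libraries. PR2, a glucanase that cuts callose-type polymers, had 49 counts, with 0 in 11 libraries. Its counts were 2 in WT at 0 mM library 4, 4 in C4 at 0 mM library 1, 12 in C4 at 150 mM library 3, 12 in B2 at 0 mM library 1, 5 in B2 at 150 mM library 2 and 14 in library 3. PR2 passed in no comparison, and PR1 and PR5 were below the filter and were not tested. PR1 lies on chromosome 2 (6241640 to 6242541), PR2 on chromosome 3 (21188397 to 21189967), and ICS1 and PR5 on chromosome 1 (28070295 to 28074177 and 28177670 to 28179022).

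PAD3 fell in WT and in the average. It encodes the cytochrome P450 of the last steps of camalexin synthesis. In WT it was 110.2, 59.5 and 39.5 CPM without salt and 4.75 and 17.4 CPM with salt. In B2 it went from 123.8, 65.0 and 59.6 CPM to 32.6, 17.3 and 22.7 CPM, and neither genotype's groups overlapped. In C4 it went from 127.4, 61.1 and 47.5 CPM to 66.9, 18.2 and 84.2 CPM, so that 2 salt libraries stood among the 0 mM values and library 2 was at the level of the other genotypes under salt. At 0 mM, library 1 of each genotype held the highest PAD3 level of its group.

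The log2 fold change of PAD3 was -2.65 ± 0.76 in WT (adjusted p = 0.0296), -0.48 ± 0.61 in C4 (adjusted p = 0.666) and -1.77 ± 0.62 in B2 (adjusted p = 0.0675), and the average was -1.64 ± 0.38, a 3.11-fold fall (adjusted p = 0.00371), by edgeR. The WT call was lost without WT at 0 mM library 1 (-2.16, adjusted p = 0.0917), without WT at 0 mM library 3 (-2.76, adjusted p = 0.0530), without WT at 150 mM library 1 (-2.01, adjusted p = 0.254) and with the WT groups alone (-2.66, adjusted p = 0.0757). It held without WT at 150 mM library 2, with a larger value of -3.87 ± 1.04 (adjusted p = 0.0259). The B2 value passed without C4 at 150 mM library 2 (adjusted p = 0.0425), in DESeq2 (adjusted p = 0.0249) and with the B2 groups alone (adjusted p = 0.0113); without both libraries of doubted label it was -1.97 ± 0.64 (adjusted p = 0.0870). The average passed with any 1 library left out, from -2.04 without WT at 150 mM library 2 to -1.42 without library 1, and was -2.11 without both libraries of doubted label (adjusted p = 0.00444).

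**Figure D2:**
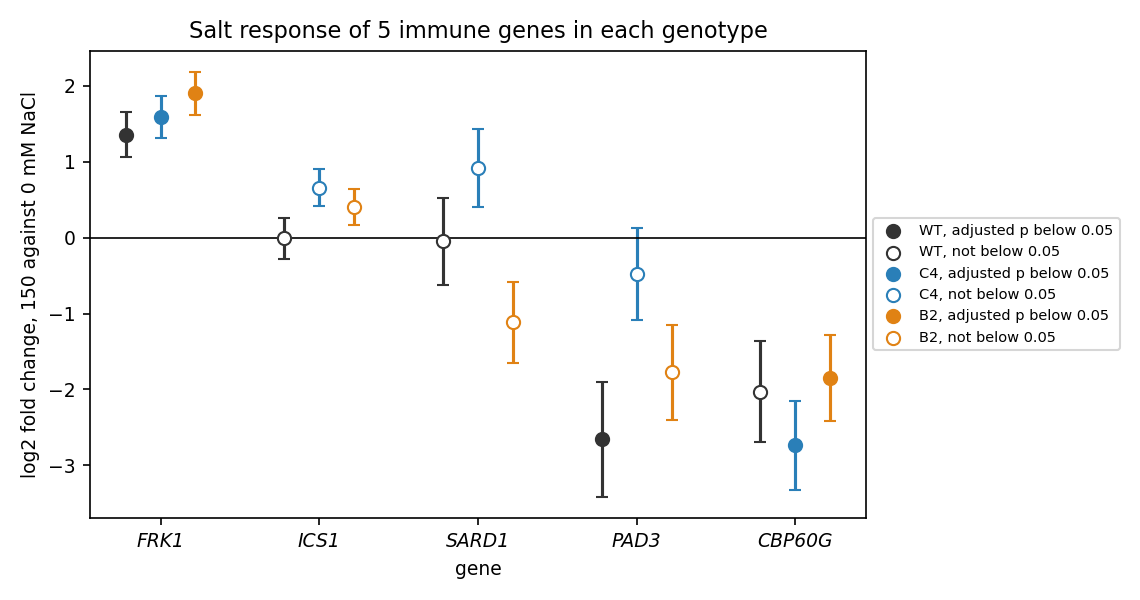
Log2 fold change of 150 against 0 mM NaCl (vertical axis) for 5 genes (horizontal axis) in WT, C4 and B2; bars are ± 1 SE from edgeR and filled points passed an adjusted p of 0.05. FRK1 is above 0 in each genotype (1.36 to 1.90), CBP60G is below 0 in each (-2.74 to -1.85), and SARD1 and PAD3 spread most between genotypes.

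Of the 6 tested members, 2 passed in WT (FRK1 higher, PAD3 lower), 2 in C4 and 2 in B2 (FRK1 higher, CBP60G lower in both). Among all 21367 genes, 16.6% passed in WT (9.29% higher, 7.35% lower), 12.1% in C4 (6.69% higher, 5.44% lower) and 16.2% in B2 (9.61% higher, 6.63% lower). In the average, 3 of 6 passed (FRK1 higher, CBP60G and PAD3 lower), beside 42.1% of all genes (21.5% higher, 20.5% lower). A share of 3 in 6 is close to that of all genes, so the count says little about these members; the direction and size of each gene is what they add. At an unadjusted p below 0.05, 3 members passed in each genotype and 4 in the average. Of all 21367 genes, 6694 did so in WT, 5724 in C4, 7006 in B2 and 10670 in the average. DESeq2 called 3 members in WT, 2 in C4, 3 in B2 and 4 in the average. Its shares of all genes were 18.7%, 14.5%, 19.4% and 39.1% in the same order.

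**Figure D3:**
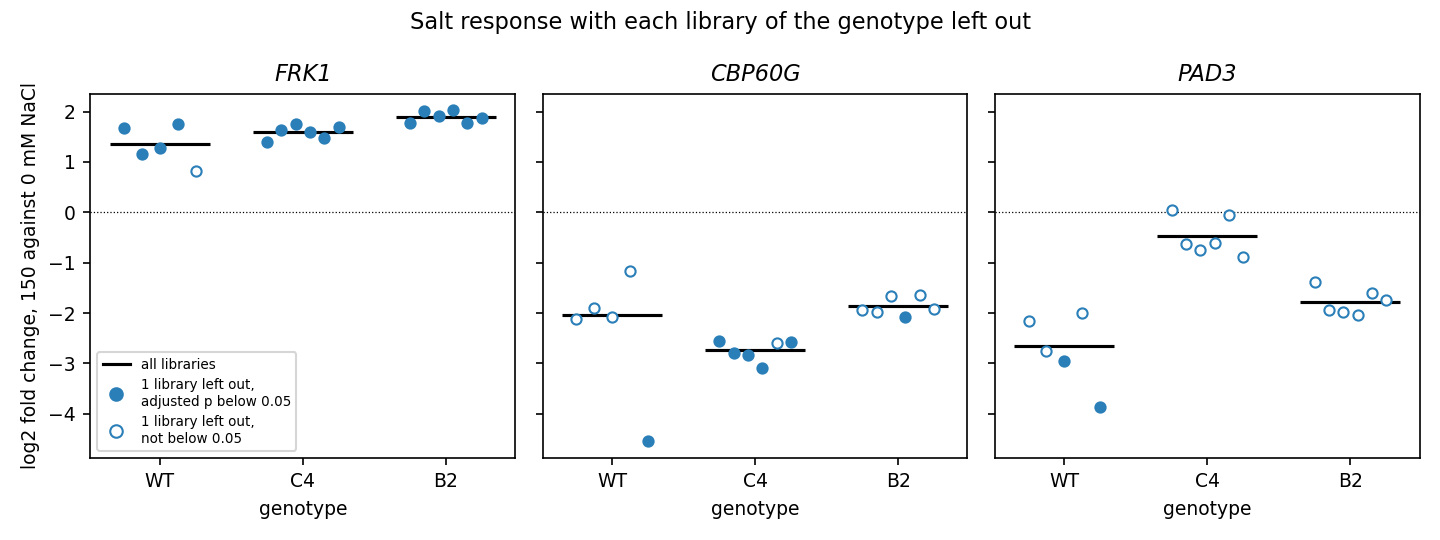
Log2 fold change of 150 against 0 mM NaCl (vertical axis) of FRK1, CBP60G and PAD3 in each genotype with each library of that genotype left out in turn (points, filled where the adjusted p was below 0.05) beside the value with all libraries (bar). In WT, leaving out a single library moved CBP60G between -4.55 and -1.17.

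The genotypes were then compared with each other. Without salt, C4 and WT differed in 0 of the 6 tested members, and B2 and WT in 0, beside 0.00% of all genes in both. The log2 differences from WT of FRK1, CBP60G, SARD1, ICS1 and PAD3 lay between -0.36 (FRK1) and 0.17 (PAD3) in C4 and between -0.53 (FRK1) and 0.25 (PAD3) in B2. The B2 differences lay between -0.56 (FRK1) and 0.43 (PAD3) without both libraries of doubted label, and 0 members passed. An unadjusted p below 0.05 was reached by 0 members in these comparisons, and DESeq2 called 0.

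At 150 mM, C4 and WT differed in 0 of 6 members by edgeR (0.00% of all genes), with 1 at an unadjusted p below 0.05 and 0 in DESeq2. That 1 was PAD3, which was 5.10-fold higher in C4 (2.35 ± 0.75, unadjusted p = 0.00740, adjusted p = 0.665). Of all 21367 genes, 1377 had an unadjusted p below 0.05 there. PAD3 did not overlap between these groups. Its C4 libraries, at 18.2 to 84.2 CPM, lay above both WT libraries, at 4.75 and 17.4 CPM, but the lowest of C4 and the highest of WT nearly met. Without the library labelled WT at 150 mM, library 2, the difference was 3.55 (adjusted p = 0.188), and without library 1 it was 1.70 (adjusted p = 1). B2 and WT at 150 mM differed in 0 of 6 members (0.00% of all genes), with 0 at an unadjusted p below 0.05 and 0 in DESeq2.

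The salt responses of C4 and WT differed in 0 of 6 members (0.00% of all genes), with 1, PAD3, at an unadjusted p below 0.05 (2.18 ± 0.94, adjusted p = 1.00) and 0 in DESeq2. Of all 21367 genes, 775 had an unadjusted p below 0.05 there. The PAD3 value was 3.39 ± 1.11 without WT at 150 mM library 2 (adjusted p = 0.407) and 1.53 ± 1.03 without library 1 (adjusted p = 1.00). The responses of B2 and WT differed in 0 of 6 (0.00% of all genes), with 0 at an unadjusted p below 0.05 and 0 in DESeq2. CBP60G in both B2 comparisons depended on which library labelled WT at 150 mM was kept. At 150 mM its log2 difference of B2 from WT was 0.10 ± 0.62 with all libraries. It was 2.61 ± 0.47 without WT at 150 mM library 2 and -0.77 without library 1. Its difference in salt response was 0.18 ± 0.83, then 2.68 ± 0.53 and -0.70 in the same order. Each value with a library left out rests on 1 WT salt library, assumed to vary as the other groups do. CBP60G was 2.81 CPM in library 1 and 29.6 CPM in library 2.

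The wider pathways were described with 5 lists of genes that share no gene with the 10. In the list of salicylate synthesis and its regulators, 2 of 20 tested genes rose and 7 fell in the average, beside 21.5% of all genes higher and 20.5% lower. The median log2 fold change was -0.20, beside -0.01 over all genes. EDS5, which exports isochorismate from the plastid, fell by 0.77 ± 0.12, and it was 64.8 to 105.0 CPM at 0 mM and 38.0 to 67.2 CPM at 150 mM, with some overlap. EPS1, which forms salicylic acid from the glutamate conjugate of isochorismate, fell by 0.68 ± 0.11. AT5G52810 (SARD4), a reductase of pipecolic acid synthesis, fell by 0.47 ± 0.09 in the average. In WT it went from 31.1 to 39.5 CPM at 0 mM to 16.7 and 17.3 CPM at 150 mM. In C4 it was 20.4 to 23.8 CPM and 21.65 to 22.4 CPM, and in B2 20.8 to 34.0 CPM and 19.2 to 24.5 CPM. AT5G62570 (CBP60A), a relative of CBP60g that dampens immunity, rose by 0.74 ± 0.10, from 33.1 to 47.7 CPM at 0 mM to 51.6 to 81.6 CPM at 150 mM.

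CBP60A and CBP60G of the same protein family thus passed in opposite directions. In single genotypes, 2, 1 and 1 genes of this list rose in WT, C4 and B2 and 2, 2 and 2 fell, with list medians of -0.36, -0.14 and -0.10.

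Salicylate perception and response held 20 tested genes, of which 2 rose and 5 fell in the average. Beside 21.5% of all genes higher and 20.5% lower, these counts say little about the list. The median was -0.05, and -0.10 without BG1, which had 0 counts in 4 groups. WRKY54 and WRKY70, a pair of related factors in salicylate signalling, fell by 1.20 ± 0.19 and 1.14 ± 0.24. AT4G26120 (NPR2), a relative of the receptor NPR1, fell by 1.02 ± 0.17, from 16.0 to 22.6 CPM at 0 mM to 5.30 to 12.8 CPM at 150 mM. WRKY18 rose by 1.14 ± 0.17. In single genotypes 1, 1 and 1 genes rose and 2, 2 and 1 fell in WT, C4 and B2.

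Of the 5 lists, that of enzymes that modify salicylate had the only averaged median above 0. Of 6 tested genes, 3 rose and 1 fell in the average, beside 21.5% of all genes higher and 20.5% lower, with a median of 0.64. DMR6, a salicylate 5-hydroxylase that acts against immunity, rose 2.63-fold (1.40 ± 0.16, adjusted p = 1.60e-05); its libraries held 43.1 to 88.7 CPM at 0 mM and 127.2 to 221.1 CPM at 150 mM, with no overlap. AT4G10500, the related salicylate 3-hydroxylase, rose by 1.17 ± 0.23. MES9, an esterase that frees salicylic acid from its methyl ester, rose by 0.92 ± 0.15. UGT76B1, a glucosyltransferase for salicylic acid and for small molecules that promote immunity, fell by 0.64 ± 0.09. The list therefore holds enzymes that remove active salicylate and 1 that releases it among those that rose. In single genotypes 3, 1 and 2 rose and 1, 1 and 1 fell.

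Genes of camalexin and related indolic compounds fell in larger number. Of 12 tested, 0 rose and 9 fell in the average, beside 20.5% of all genes lower, and the median was -0.75. WRKY33, the factor that activates PAD3, fell by 0.72 ± 0.11, from 128.1 to 224.4 CPM at 0 mM to 94.8 to 156.5 CPM at 150 mM. CYP79B2, which makes indole-3-acetaldoxime from tryptophan, fell by 0.69 ± 0.11, and GGP1, a peptidase that acts on the glutathione intermediate, fell by 0.87 ± 0.14. MYB51, a regulator of indole glucosinolates, fell by 0.99 ± 0.16. In WT, C4 and B2, 6, 3 and 6 of the 12 fell and 0, 1 and 0 rose.

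Receptors, kinases and markers of pattern-triggered immunity, the arm that FRK1 reports on, went both ways. Of 17 tested, 2 rose and 7 fell in the average, beside 21.5% of all genes higher and 20.5% lower, with a median of -0.27. WRKY53 rose by 0.97 ± 0.13. The oxidase gene RBOHD, which makes the immune burst of reactive oxygen, fell by 0.62 ± 0.09, and the kinase MPK3 fell by 0.50 ± 0.08. CYP81F2, which modifies indole glucosinolates and is often used as a marker beside FRK1, fell by 2.52 ± 0.38, from 164.4 to 378.2 CPM at 0 mM to 11.3 to 119.4 CPM at 150 mM. FRK1 and CYP81F2, both induced by flagellin, thus went opposite ways in the same libraries. In WT, C4 and B2, 1, 2 and 1 of the 17 rose and 4, 2 and 4 fell.

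The list counts of single genotypes, whose shares over all genes were 6.69% to 9.61% higher and 5.44% to 7.35% lower, changed with single libraries. In B2, the 6 genes that fell in the camalexin list were 1 to 7 with each library left out. They were 1 without B2 at 150 mM library 2, where 3.29% of all genes passed, and 3 without B2 at 0 mM library 1 or B2 at 150 mM library 3. The 4 that fell in pattern-triggered immunity were 0 to 4, with 0 without B2 at 150 mM library 2, 1 without B2 at 0 mM library 3 or B2 at 150 mM library 3, and 2 without B2 at 0 mM library 1. In C4, the 3 that fell in the camalexin list were 1 to 5: 1 without C4 at 0 mM library 1 or 2 or C4 at 150 mM library 2 or 3, and 5 without WT at 150 mM library 1 or 2. The 2 that fell in pattern-triggered immunity in C4 were 0 to 3, with 0 without C4 at 0 mM library 1 or any salt library of C4, and 1 without C4 at 0 mM library 3.

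In the other 3 lists, the counts of 1 or 2 genes in C4 and B2 ranged from 0 to 3 with each library left out. The shares of all genes called in those fits were 6.13% to 13.8% in C4 and 3.29% to 26.8% in B2. Without WT at 150 mM library 1 the share of all genes called in WT was 1.52%, and in WT 0 genes of any list passed in either direction, except 1 that fell in synthesis. In the average, over the 17 fits with a library left out, 5 to 10 genes fell in synthesis, 4 to 5 in perception, 9 to 10 in the camalexin list and 5 to 8 in pattern-triggered immunity, and 3 to 4 rose in modification. Without both libraries of doubted label, 2 rose and 9 fell in synthesis, 1 and 5 in perception, 3 and 1 in modification, 0 and 10 in camalexin, and 2 and 8 in pattern-triggered immunity in the average, where 36.3% of all genes passed in either direction.

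**Figure D4:**
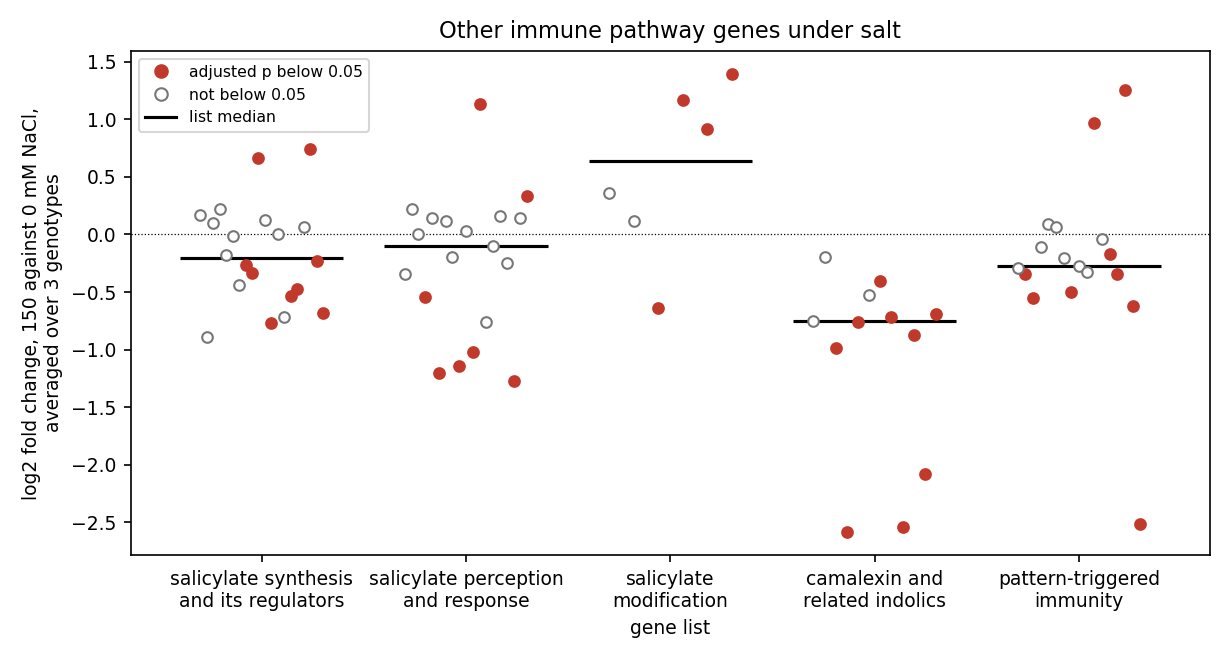
Log2 fold change of 150 against 0 mM NaCl averaged over the 3 genotypes (vertical axis) for the tested genes of 5 lists (horizontal axis); red points passed an adjusted p of 0.05, bars are list medians, and BG1 is not drawn because it had 0 counts in 4 groups. The camalexin list has a median of -0.75 with 0 genes higher, and the modification list has a median of 0.64.

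The libraries of C4 at 150 mM were not alike for part of this pathway. PAD3 was 66.9 and 84.2 CPM in libraries 1 and 3 and 18.2 CPM in library 2. The same split was looked for, after PAD3 had been seen, among list genes and neighbours in profile. ABCG40, a membrane transporter for abscisic acid and other compounds, was 78.6 and 98.0 CPM in libraries 1 and 3, 3.02 CPM in library 2, and 1.70 to 15.3 CPM in the 14 libraries of the other groups. FLS2 (AT5G46330), the flagellin receptor, was 3.91 and 4.92 CPM against 1.45 CPM. NAC042, a regulator of camalexin genes, was 22.2 and 19.9 CPM against 3.77 CPM. AT1G26380, an oxidase of indolic nitriles, was 63.5 and 65.6 CPM against 10.1 CPM. Uneven salt libraries were not limited to C4. At 150 mM, AT1G26380 was 3.498 and 44.22 CPM in WT and 70.84, 19.33 and 34.68 CPM in B2. NAC042 was 2.879 and 11.91 CPM in WT and 24.25, 6.498 and 7.068 CPM in B2. ABCG40 and FLS2 spread less there. ABCG40 was 1.70 and 2.228 CPM in WT and 3.85 to 8.852 CPM in B2. FLS2 was 0.9474 and 1.494 CPM in WT and 1.373 to 2.45 CPM in B2.

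NAC042 and AT1G26380 were below the 0 mM level in all 3 salt libraries of C4, whereas ABCG40 stood above it in libraries 1 and 3 and FLS2 in all 3. The 21 counts of PR5 also lay in libraries 1 and 3. FRK1 was highest in library 2 (25.5 CPM), CBP60G lay there between the other two, and ICS1 was 11.1 CPM there against 12.0 and 12.7 CPM. The called rises of FLS2 (2.48 ± 0.53, adjusted p = 0.00706) and ABCG40 (2.98 ± 0.84, adjusted p = 0.0352) in C4 come from a group whose libraries are this uneven. The call of ABCG40 was lost without C4 at 150 mM library 1 or 3, without any library of C4 at 0 mM, and without both libraries of doubted label, since 0 genes of its list then rose in C4. The choice of these 4 genes followed a look at their values, and what sets library 2 apart was not tested.

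**Figure D5:**
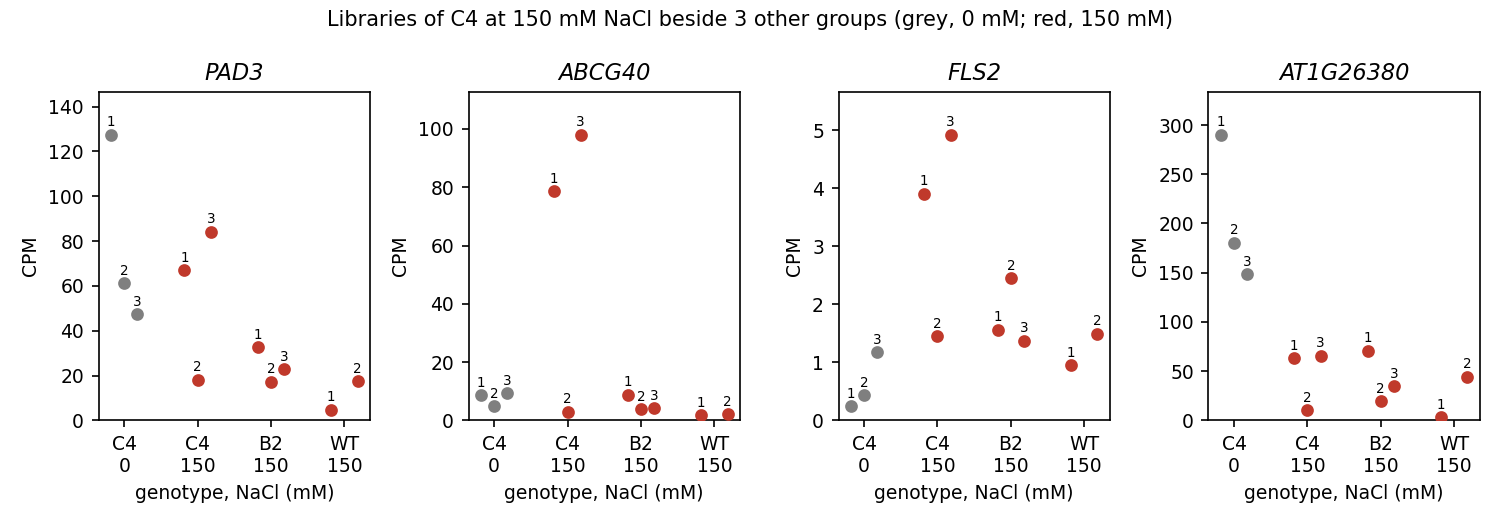
Level in CPM (vertical axis, separate scale per gene) of PAD3, ABCG40, FLS2 and AT1G26380 in the libraries of C4 at 0 and 150 mM NaCl and of B2 and WT at 150 mM; points are libraries and small numbers name them. In C4 at 150 mM, libraries 1 and 3 stand above library 2 for each of the 4 genes.

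Profiles over the 17 libraries were compared by the root mean square difference of log2 CPM after centring each gene on its own mean; smaller is more alike, and this is a description with no test. The genes nearest to FRK1, whose own SD was 0.90, were GSTU9 (0.31), GLTP2 (0.33) and AT1G64500 (0.36). Nearest to CBP60G (SD 1.46) were ARI12 (0.39), FLOT1 (0.40) and AT2G45180 (0.42), and nearest to PAD3 (SD 1.25) were AT3G54150 (0.45), CRK40 (0.46) and GSTU12 (0.49). GSTU12 also had the split of C4 at 150 mM, at 37.9 and 47.3 CPM in libraries 1 and 3 against 13.2 CPM in library 2. ICS1 (SD 0.37) was nearest to HIPL2 (0.19), AT1G65690 (0.21) and AT5G65925 (0.22).

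SARD1 (SD 0.85) had no close neighbour, with AT3G57460 at 0.52, BCS1 at 0.56 and AT2G48090 at 0.57. For PR2, whose profile rests on 49 counts, the nearest were AT2G05230 at 0.80, EDA6 at 0.85 and AT5G03580 at 0.86. Among FRK1, CBP60G, SARD1, ICS1 and PAD3 the smallest difference was that of FRK1 and ICS1 (0.70). CBP60G and PAD3 were at 1.03, and FRK1 and CBP60G had the largest difference (2.15). The measure is not scaled for spread, so it can be small where a gene varied little, as ICS1 did (SD 0.37). CBP60G and SARD1, which act on the same ICS1 promoter, were at 1.71.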

How the data were processed

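The authors deposited 1 table of raw gene counts, made with featureCounts 2.0.3 on exons summed by gene with Araport11 models, strand setting 2 and a mapping quality of at least 10, per the file headers. Counts are of reads, with each mate of a pair counted. STAR 2.7.11a, fastp, FastQC 0.12.1 and the build TAIR10 are named in the submitters' processing notes. Reads that map to several places were not counted with these settings.

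WT libraries 1 and 2 at 0 mM differed by less than the sampling noise, with 24515 of 24532 genes equal, and were counted as 1 sample; library 1 was used, and the 17 genes that differed between them, which hold no member, were left out. The remaining 17 libraries were fitted with edgeR 4.0.16 in R 4.3.3 with 1 mean per group. Scaling was by TMM, genes with low counts were filtered, and two-sided quasi-likelihood tests were adjusted by Benjamini-Hochberg over 21367 genes at 0.05. Each SE is the size of the log2 fold change over the square root of its F statistic. Log2 CPM for profiles used a prior count of 2. The procedure was run on simulated counts with the fitted spread and the same salt effect in each genotype. That setting has no mislabelled libraries, so it cannot address them.

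Members and lists were chosen with earlier results of these data known. The text names the members, up to 4 genes per list with the lowest adjusted p in the averaged response, and the 3 nearest profiles per tested member; others are said to be chosen after their values were seen. The 2 contrasts of C4 with B2 were added after seeing values. Alternatives were DESeq2's size factors, no filter, DESeq2 1.42.0, only the groups compared, both near-identical columns, leaving out both libraries of doubted label, and leaving out each library. Depth was 54233853 to 91527683 counts per library, and floors of 3 counts cover counting error only.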

Additional observations from a re-analysis of the deposited data

How the results depend on the processing

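The number of members called stayed within 1.5 times its value for each comparison under DESeq2's size factors, no filter on low counts and both near-identical columns kept. With only the WT groups in the fit, 0 members passed the salt response in WT, where 4.78% of all genes did. With DESeq2, 1 member passed between C4 and B2 at 150 mM, beside 0.363% of all genes. Without both libraries of doubted label, 1 WT salt library is left. CBP60G then differed by 2.61 between B2 and WT at 150 mM, and by 2.88 in their salt responses. Each other library was also left out in turn, with both WT salt libraries kept. The number called ranged from 1 to 2 in WT, 1 to 3 in C4, 1 to 2 in B2 and 3 to 4 in the average. The shares of all genes called ranged from 8.25% to 21.3%, 6.13% to 13.8%, 3.29% to 26.8% and 37.2% to 45.8% in the same order. In the other comparisons 0 members were called throughout. In comparisons where a member was called with all libraries, its value kept its sign. Elsewhere values of the same members did change sign with each library left out. CBP60G ranged from -0.77 to 2.61 for B2 against WT at 150 mM, and the PAD3 salt response in C4 from -0.88 to 0.05. The cause of these shifts was not tested. No paired analysis was possible because the labels give the libraries no shared replicate number. The WT salt group has 2 libraries, which limits every WT value. PR2 and PR5 rest on 49 and 21 counts over all libraries.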
